A study of Mus musculus with 36 samples.

Results

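Kidneys of 6 C57BL/6 mice (labelled b6j) given 0.5 mg/kg of CdCl2 were compared with kidneys of 6 untreated b6j mice, 12 of the 36 libraries in the series. The b6j 0.5 mg/kg and b6j control libraries were taken by their titles, and the comparison covered all 18180 genes that passed the expression filter. Also compared were b6j mice at 2 mg/kg and obese ob/ob mice (labelled ob, on the same strain) at 0.5 mg/kg and untreated, 6 each. The 6 libraries of ob mice at 2 mg/kg were not compared here, but they entered the filter, the scaling and the fitted spread. All these mice carry the strain label C57BL/6, and the tissue is labelled kidney with no part of the organ named. The series title speaks of chronic cadmium accumulation. The sources used here do not give the route, the number of doses, the age or the sex, or say whether any 2 mice shared a litter or cage. P-values therefore take each mouse as independent and rest on the spread between single mice, estimated over all 36 libraries.

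Cadmium is a toxic metal that collects in the kidney, mainly in the cells of the proximal tubule. Once inside a cell it is held by metallothioneins, small proteins rich in cysteine that also bind zinc and copper. Cadmium displaces zinc from such proteins, and free zinc activates the transcription factor MTF-1. MTF-1 binds metal response elements in the promoters of the metallothionein genes and of a zinc exporter. Metal that is not bound also strains glutathione and activates NRF2, a factor that drives genes of conjugation, export and heme breakdown.

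The 12 libraries held 29380575 to 37244058 counted reads, so 3 counts were worth 0.0805 to 0.1021 CPM, that is counts scaled to library size. Proximal tubule markers summed to between 59090 and 74240 CPM at 0.5 mg/kg and to between 58600 and 75250 CPM in controls (medians 62550 and 69630 CPM). Of the 25 proximal tubule markers tested edgeR called 0, or 1 (Slc34a3) without ob_Cd2 replicate 5, an ob library at 2 mg/kg. Treated replicate 6 stood apart from the other treated mice. It had the fewest genes with a count (20809) and the lowest loop of Henle sum (4289 CPM, against 6752 to 7844 CPM in the other 5 treated mice) and the highest proximal tubule sum (74240 CPM, against 59090 to 64530 CPM). Without it 56 genes were called, 48 higher and 8 lower. Control replicate 4 had 181 CPM of the injury marker Havcr1, against 2.15 to 13.0 CPM in the other 5 controls, and without it 56 genes were called, 52 higher and 4 lower. All 11 genes of the perirenal fat list lay above 0 with a median log2 change of 0.95 and 0 were called by edgeR, and they summed to between 127 and 352 CPM at 0.5 mg/kg and between 112 and 181 CPM in controls. Car3 of that list, the carbonic anhydrase of fat and muscle, was called by limma-voom (1.07, adjusted p = 0.00996) and without ob_Cd2 replicate 5 (1.08, adjusted p = 0.0173). All 8 red cell genes (median 0.34) and all 12 podocyte genes (median 0.18) also lay above 0, with 0 called by edgeR. The part of these cells in the results below was not tested. In bulk kidney RNA, fewer cells of a type and less RNA per cell cannot be told apart.

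Few genes passed the test at the low dose, and most of them were higher. By the quasi-likelihood test of edgeR at a Benjamini-Hochberg adjusted p below 0.05, 59 of 18180 genes were called (0.325%). Of these 54 were higher at 0.5 mg/kg (0.297% of all genes tested) and 5 were lower (0.0275%). The median log2 change was 1.35 over the 54 higher genes, also with genes of few control counts set to their bound, and 0.005 over all genes tested. A change of more than 2-fold was fitted for 36 of the 59. In 43 of the 59 the treated and control mice did not overlap, a pattern that 1.05% of all tested genes showed. In 40 of them every treated mouse was above every control (0.677% of tested genes) and in 3 below (0.369%). All 36 libraries of the series shared 1 estimate of the spread between mice. Without 1 library of another group, ob_Cd2 replicate 5, 157 genes were called, 127 higher and 30 lower, with all 59 among them. The count and its balance also moved with the tool. With the 12 libraries alone edgeR called 81 higher and 39 lower, DESeq2 called 89 and 17, and limma-voom with sample weights called 117 and 115. Below, called and not called refer to edgeR with the 36 libraries unless another fit is named.

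**Figure D1:**
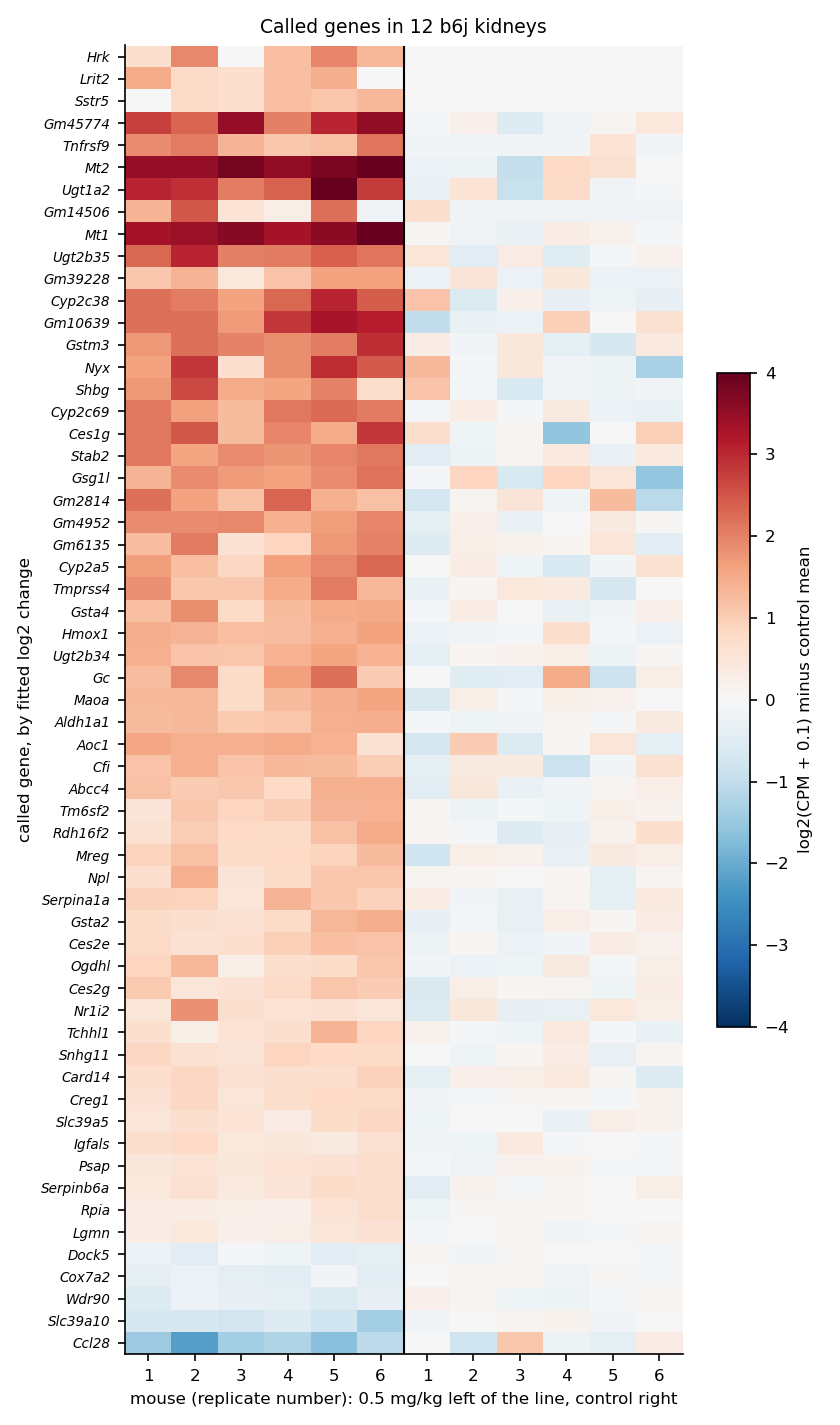
Rows are the 59 called genes in order of fitted log2 change and columns are the 12 b6j mice, 0.5 mg/kg left of the line and control right. Colour is log2(CPM + 0.1) minus the control mean, so the rows of genes with 0 control counts (Hrk, Lrit2 and Sstr5) are muted by the added 0.1. The mostly red block left of the line covers 54 genes and the rows at the foot are the 5 lower genes. Colour is faint where changes were small, as for Cox7a2, Wdr90 and Dock5 among the lower genes.

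The smallest p-values belonged to Mt1 and Mt2, which lie side by side. Mt1 lay at 1150.3, 1329 and 1823 CPM (lowest, median and highest mouse) at 0.5 mg/kg and at 94.3, 113 and 141 CPM in controls. The lowest treated mouse was thus far above the highest control. The log2 change was 3.57 ± 0.14 (SE), an 11.8-fold rise (adjusted p = 2.63e-19). Mt2 lay at 6.08, 6.74 and 9.62 CPM in treated mice and at 0.182, 0.404 and 0.839 CPM in controls, again with no overlap. Its log2 change was 3.85 ± 0.27 (adjusted p = 2.38e-12). Treated replicate 6 was highest for both genes.

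The metallothionein locus lies on chromosome 8 of GRCm38. Mt2 (ENSMUSG00000031762) spans 94172664 to 94173568 and Mt1 (ENSMUSG00000031765) spans 94179082 to 94180327, both on the plus strand. An antisense transcript, Gm45774, covers 432 of the 588 exon bases of Mt2 (73.5%) from the minus strand. Reads that fall on both genes were not assigned, because counting ignored the strand and default settings drop such reads. The level of Mt2 therefore rests on the other 156 exon bases. Gm45774 itself lay at 0.479, 0.985 and 1.60 CPM at 0.5 mg/kg and at 0, 0.0466 and 0.0940 CPM in controls (log2 change 4.34 ± 0.46, adjusted p = 1.19e-07), and its reads cannot be told apart from those of Mt2 by strand. A long noncoding RNA gene, Gm39228, named here after its values were seen because of its place, begins 2962 bases past the end of Mt1. It had 34 counts in all treated mice and 4 in all controls (log2 change 2.88 ± 0.62, adjusted p = 0.0191), and its call was lost without any of 5 single mice. The nearest genes tested on either side did not pass the test. Upstream, Mt3, the metallothionein known from brain, had a log2 change of 0.28 ± 0.45 and downstream the nuclear pore gene Nup93 had one of 0.11 ± 0.09 (adjusted p = 1 for both). Mt4, known from stratified epithelium, had 0 counts in all 12 libraries, which allows up to 0.0805 to 0.1021 CPM in a library for counting error alone.

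**Figure D2:**
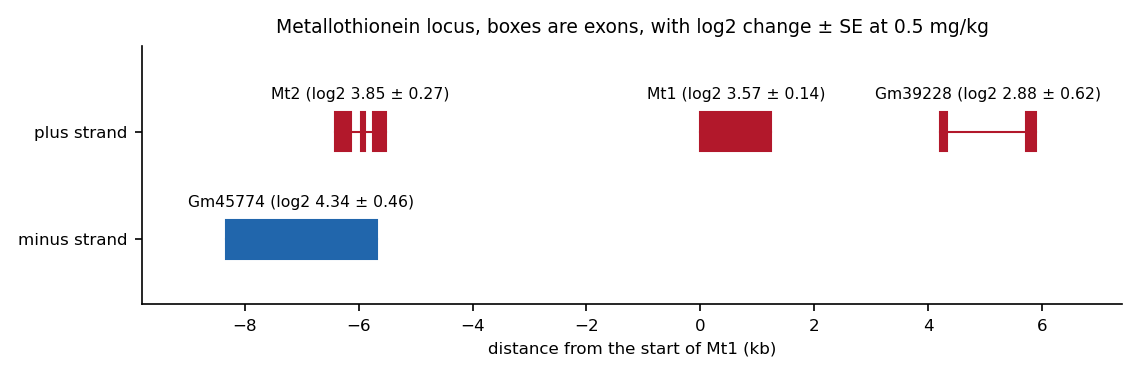
The map shows the metallothionein locus by distance in kb from the start of Mt1, with plus strand genes in red above the minus strand gene in blue, exons as boxes, and the log2 change ± SE at 0.5 mg/kg against control above each gene. Gm45774 lies across most of Mt2 on the opposite strand, and Gm39228 begins 2962 bases past Mt1.

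The promoter windows of the 3 genes at this locus with a RefSeq entry are printed because they hold the letters to which MTF-1 is known to bind. Each window runs from 250 bases before to 50 bases after the RefSeq start (build GRCm38.p6, plus strand, 5′ to 3′). Capitals mark TGCGCNC or TGCACNC, the core of the metal response element, on either strand. They lie at chr8:94178839-94179138 for Mt1, chr8:94172368-94172667 for Mt2 and chr8:94183169-94183468 for Gm39228.
Mt1: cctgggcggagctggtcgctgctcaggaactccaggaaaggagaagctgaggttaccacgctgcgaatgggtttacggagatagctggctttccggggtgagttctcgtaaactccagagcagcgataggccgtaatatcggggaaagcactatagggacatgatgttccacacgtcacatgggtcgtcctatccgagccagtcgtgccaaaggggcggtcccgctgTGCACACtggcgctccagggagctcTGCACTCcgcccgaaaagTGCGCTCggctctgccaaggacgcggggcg
Mt2: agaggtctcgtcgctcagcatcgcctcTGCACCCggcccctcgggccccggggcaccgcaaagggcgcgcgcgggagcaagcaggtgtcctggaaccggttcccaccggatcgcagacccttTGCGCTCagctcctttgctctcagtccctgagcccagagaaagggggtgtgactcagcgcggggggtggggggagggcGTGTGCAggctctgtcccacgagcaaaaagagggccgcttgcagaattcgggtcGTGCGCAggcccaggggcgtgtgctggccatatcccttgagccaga
Gm39228: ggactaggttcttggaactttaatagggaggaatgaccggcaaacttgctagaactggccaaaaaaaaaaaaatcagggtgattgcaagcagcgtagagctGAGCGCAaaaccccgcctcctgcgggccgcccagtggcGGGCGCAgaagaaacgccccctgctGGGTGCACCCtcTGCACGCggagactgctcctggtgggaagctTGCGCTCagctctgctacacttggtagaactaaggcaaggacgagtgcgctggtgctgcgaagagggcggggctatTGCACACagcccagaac
The core occurred 3 times in the Mt1 window, 4 times in that of Mt2 and 7 times in that of Gm39228, where a forward and a reverse match overlap. The Mt1 matches span bases 228 to 277 of its window and so reach past the RefSeq start. Matches beyond the end of a window were not counted. Of all 32851 promoter windows 1.97% held 3 or more matches and 0.0183% held 7 or more. RefSeq windows were found for 46 of the 59 called genes, 60 windows in all, and these 3 genes were the ones with 3 or more. At least 1 match was present in 26.7% of the 60 windows and in 25.7% of all windows. The core of the antioxidant response element, TGACNNNGC on either strand, was present in 16.7% of the 60 windows and in 12.4% of all windows. These are counts of letters and do not show binding.

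Zinc carriers moved in both directions. Slc39a10 (ZIP10), which brings zinc into the cell, lay at 14.5, 23.3 and 26.3 CPM at 0.5 mg/kg and at 34.7, 37.7 and 41.2 CPM in controls. Its span holds a noncoding gene of the same strand, Gm28151. Every treated mouse was below every control (log2 change -0.77 ± 0.13, adjusted p = 0.000633). Slc39a5 (ZIP5), another zinc importer, rose by 0.59 ± 0.13 on the log2 scale (adjusted p = 0.0224), with 43.6 to 61.1 CPM in treated mice and 29.0 to 42.1 CPM in controls. Its annotated span overlaps Ankrd52, an expressed protein-coding gene on the opposite strand. The call of Slc39a5 was lost without any of 6 single mice. The zinc exporter Slc30a1, an MTF-1 target, had 2.36 to 3.54 CPM at 0.5 mg/kg and 1.42 to 2.77 CPM in controls, with a log2 change of 0.65 ± 0.20 that did not pass by edgeR (adjusted p = 0.282) and did by limma-voom (0.68, adjusted p = 0.0477). Of 17 metal-responsive genes tested, 2 rose (Mt1 and Mt2), 1 fell (Slc39a10) and 14 were not called by edgeR, with a median log2 change of 0.04. Of the 22 zinc importers and exporters tested, 1 rose, 1 fell and 20 were not called by edgeR. Slc39a11, another member of the importer family, was called lower without ob_Cd2 replicate 5 (-0.41, adjusted p = 0.031) and by limma-voom (adjusted p = 0.00519).

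**Figure D3:**
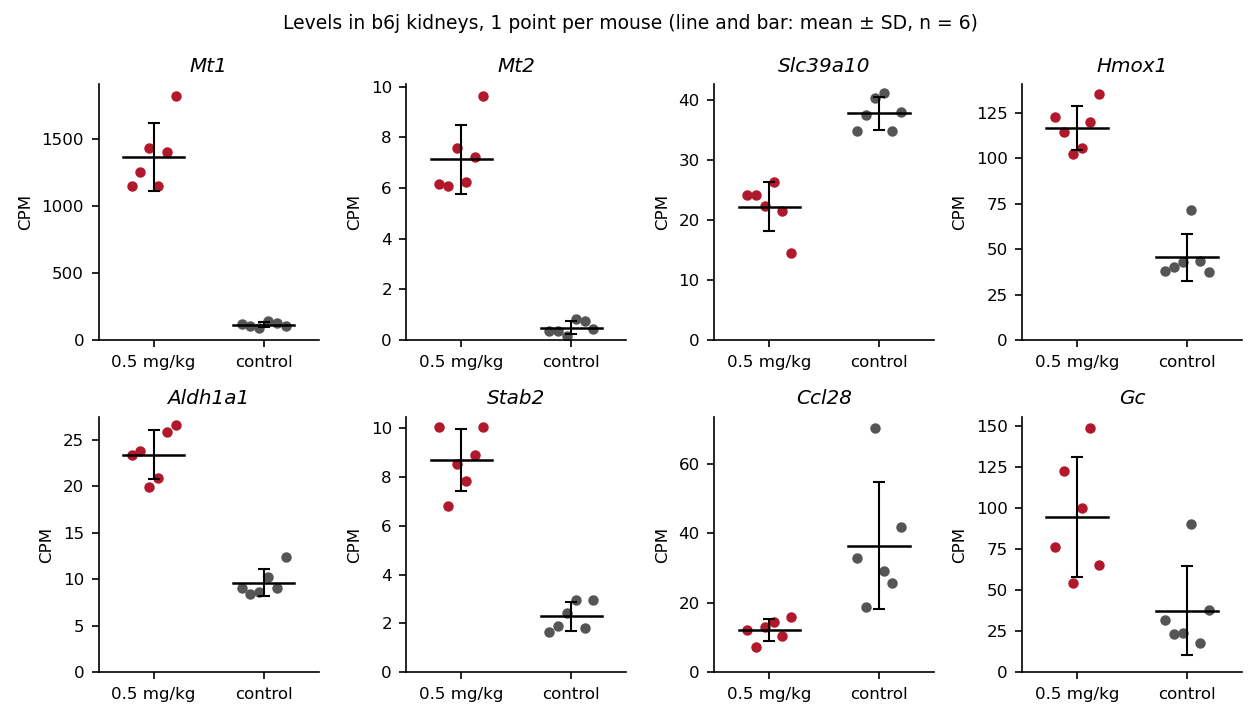
Each panel gives CPM for 1 gene in single b6j mice, 0.5 mg/kg left and control right, with the mean as a line and the SD as a bar (n = 6 each). Treated mice lie wholly above controls for Mt1, Mt2, Hmox1, Aldh1a1 and Stab2 and wholly below them for Slc39a10 and Ccl28, while for Gc 1 control, at 90.6 CPM, lies among the treated mice.

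Heme oxygenase Hmox1, which breaks heme down to biliverdin, iron and carbon monoxide and is a target of NRF2, rose 2.55-fold. It lay at 102, 117 and 136 CPM at 0.5 mg/kg and at 37.7, 41.6 and 71.6 CPM in controls (log2 change 1.35 ± 0.16, adjusted p = 2.36e-06). The groups did not overlap, and the highest control was replicate 4. The other 18 genes of heme breakdown and iron handling were not called. Of 27 NRF2 and antioxidant targets tested, 2 rose, Hmox1 and the exporter Abcc4, and 25 were not called, among them carbonyl reductase Cbr1 (0.42 ± 0.13, adjusted p = 0.295). The median of the 27 was 0.06. This list does not hold the called glutathione S-transferases Gsta2, Gsta4 and Gstm3, which are given below.

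A set of 18 of the 59 called genes encodes enzymes, a pump and a receptor that handle foreign compounds and small metabolites. The set was put together after the values were seen, so its size and direction are a description. All 18 were higher, with log2 changes from 0.81 to 3.80 and a median of 1.31. Treated and control mice did not overlap in 16 of the 18, and 12 of the 18 were called without each of the 12 mice and in 9 other fits. Of all 59 called genes, 54 were higher, 43 showed no overlap and 31 were called in all these fits. No overlap was seen in 1.05% of all tested genes. The genes work in sequence in the textbook account: oxidising enzymes add or expose a reactive group, transferases attach glutathione or glucuronic acid, and pumps carry the product out.

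Among the oxidising enzymes, Aldh1a1, which turns retinal into retinoic acid and clears other aldehydes, lay at 19.9, 23.6 and 26.5 CPM at 0.5 mg/kg and at 8.46, 9.06 and 12.4 CPM in controls (log2 change 1.28 ± 0.14, adjusted p = 2.77e-07). Maoa, the monoamine oxidase of the outer mitochondrial membrane, lay at 17.5, 26.2 and 31.4 CPM in treated mice and at 7.06, 11.2 and 12.5 CPM in controls (log2 change 1.28 ± 0.16, adjusted p = 2.48e-06). Both genes were lowest in treated replicate 3 and highest in treated replicate 6. The cytochrome P450 Cyp2a5, known in mice for hydroxylating coumarin, ran from 334 to 912 CPM at 0.5 mg/kg and from 122 to 282 CPM in controls (log2 change 1.62 ± 0.29, adjusted p = 0.00223). Cyp2c38 and Cyp2c69, scarcer members of the same family, rose by 2.78 ± 0.46 and 2.09 ± 0.37 on the log2 scale. Of the 41 tested genes of the Cyp2 family these 3 were higher, 0 were lower, and the family median was 0.07. Aoc1, the diamine oxidase that degrades histamine, rose by 1.22 ± 0.22, with treated replicate 6 (6.45 CPM) below the highest control (8.73 CPM). The retinol dehydrogenase relative Rdh16f2 rose by 0.95 ± 0.21 (adjusted p = 0.0212), a call lost without any of 6 single mice.

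Glutathione S-transferases were represented by 3 genes of 21 tested, all higher, with 18 not called. Gsta4, which conjugates the lipid peroxidation product hydroxynonenal, lay at 34.98, 53.2 and 74.8 CPM at 0.5 mg/kg and at 16.9, 19.9 and 25.3 CPM in controls (log2 change 1.37 ± 0.20, adjusted p = 8.41e-05). Gsta2 lay at 212, 233 and 379 CPM in treated mice and at 109.9, 139.5 and 175 CPM in controls (log2 change 0.94 ± 0.14, adjusted p = 0.000137). Treated replicates 5 and 6 stood above the other 4 treated mice for Gsta2, at 350 and 379 CPM. Gstm3 was near the detection floor in controls, at 0.0852 to 0.303 CPM, and at 0.865 to 2.16 CPM at 0.5 mg/kg (log2 change 2.57 ± 0.47, adjusted p = 0.00277), a call lost by limma-voom (adjusted p = 0.332). Gsta3 had non-overlapping groups, 190 to 261 CPM in treated mice and 139 to 166 CPM in controls, and was not called by edgeR (0.56 ± 0.14, adjusted p = 0.107), though it was without ob_Cd2 replicate 5 (adjusted p = 0.00129) and by DESeq2 (adjusted p = 0.0273). The unnamed gene model Gm10639 lies between Gsta2 and Gsta4 on chromosome 9, 25493 bases from Gsta2. It lay at 4.34, 7.86 and 13.2 CPM at 0.5 mg/kg and at 0.582, 1.15 and 2.52 CPM in controls (log2 change 2.60 ± 0.27, adjusted p = 8.01e-08).

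UDP-glucuronosyltransferases gave 3 higher genes of 18 tested. Ugt2b34 lay at 27.1, 33.0 and 37.7 CPM at 0.5 mg/kg and at 9.60, 13.0 and 15.0 CPM in controls (log2 change 1.34 ± 0.14, adjusted p = 1.31e-07), with no overlap. Its neighbour Ugt2b35, 93923 bases away, ran from 0.821 to 1.79 CPM in treated mice and from 0.0622 to 0.218 CPM in controls (log2 change 2.98 ± 0.62, adjusted p = 0.0131), a call lost by limma-voom (adjusted p = 0.347). Ugt1a2 was above all controls in every treated mouse, but unevenly. Treated replicate 5 reached 9.28 CPM while the other 5 lay between 1.11 and 2.33 CPM, and controls lay between 0.0605 and 0.404 CPM. The log2 change of Ugt1a2 was 3.80 ± 0.77 (adjusted p = 0.0102), and 3.02 without treated replicate 5, where the call was lost (adjusted p = 0.0953), as it was by limma-voom (adjusted p = 0.372). Genes of the Ugt1a locus share their last exons, so reads there cannot be given to 1 of them.

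Carboxylesterases, which split esters and amides of drugs and lipids, also gave 3 higher genes, of 16 tested. Ces1g lay at 51.8, 87.7 and 151 CPM at 0.5 mg/kg and at 7.15, 22.1 and 41.4 CPM in controls (log2 change 1.93 ± 0.27, adjusted p = 4.41e-05). The spread within each group was wide, and the groups still did not overlap. Ces2e and Ces2g, 27046 bases apart on chromosome 8, rose by 0.89 ± 0.16 and 0.83 ± 0.18 on the log2 scale (adjusted p = 0.00277 and 0.0206). The transferases, the esterases and the Cyp2a and Cyp2c genes belong to families of close copies, so reads that fit several members may be missing from their counts.

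The export pump Abcc4 (MRP4), which carries conjugates and cyclic nucleotides out of tubule cells, lay at 84.4, 106 and 131 CPM at 0.5 mg/kg and at 35.1, 48.5 and 66.6 CPM in controls (log2 change 1.14 ± 0.15, adjusted p = 1.04e-05). No treated mouse was within the control range. None of the 23 listed organic anion and cation transporters passed the test by edgeR (median 0.04), and limma-voom called 1, lower. Nr1i2 encodes PXR, a nuclear receptor that senses foreign compounds and drives P450, transferase and pump genes in liver. Nr1i2 rose by 0.81 ± 0.19 (adjusted p = 0.0373). Treated replicate 2 had 19.5 CPM against 7.57 to 8.44 CPM in the other 5 treated mice and 3.67 to 7.52 CPM in controls. Without treated replicate 2 the change was 0.50 (adjusted p = 0.213), and the call was also lost without control replicate 1, 3 or 4.

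Genes of 3 lysosomal proteins were higher by small amounts. Psap, the precursor of the saposins that help degrade sphingolipids, lay at 2631, 2785 and 3133 CPM at 0.5 mg/kg and at 1736, 1868 and 2183 CPM in controls (log2 change 0.54 ± 0.08, adjusted p = 4.57e-05). Creg1, a glycoprotein of the endosome and lysosome, lay at 76.9, 90.9 and 97.7 CPM in treated mice and at 50.1, 54.5 and 60.2 CPM in controls (log2 change 0.70 ± 0.09, adjusted p = 4.71e-06). Lgmn, the lysosomal protease legumain that is abundant in proximal tubule, rose by 0.38 ± 0.08 (adjusted p = 0.0224), a call lost without any of 6 single mice. In each of these 3 genes all treated mice were above all controls. Of the 29 genes on the lysosome and autophagy list, which does not hold these 3, 0 were called by edgeR, 24 lay above 0 and the median was 0.10. Of that list the protease Ctsa had a log2 change of 0.31 ± 0.10 (adjusted p = 0.282), and it was called without ob_Cd2 replicate 5 (adjusted p = 0.0146) and by limma-voom (adjusted p = 0.0235). Npl, which cleaves sialic acid, lay at 31.5, 41.8 and 59.0 CPM at 0.5 mg/kg and at 17.2, 23.2 and 23.9 CPM in controls (log2 change 0.95 ± 0.12, adjusted p = 2.36e-06).

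Stab2 was the only called gene among 16 endothelial markers tested. It encodes stabilin-2, a scavenger receptor that takes up hyaluronan and is best known from the sinusoids of liver and spleen. It lay at 6.81, 8.70 and 10.03 CPM at 0.5 mg/kg and at 1.64, 2.17 and 2.98 CPM in controls (log2 change 1.92 ± 0.23, adjusted p = 2.36e-06). The other 15 endothelial markers had log2 changes from -0.19 to 0.72, and the sum of all 16 ran from 671 to 725 CPM at 0.5 mg/kg and from 567 to 762 CPM in controls. The endothelial sums thus overlapped while Stab2 did not.

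Among the higher genes were 5, picked out after the values were seen, whose secreted products are usually made by liver. The groups did not overlap in 2 of them, and 2 were called without each of the 12 mice and in 9 other fits. Cfi, which cuts complement C3b, ran from 6.41 to 8.73 CPM at 0.5 mg/kg and from 1.74 to 4.98 CPM in controls (log2 change 1.16 ± 0.23, adjusted p = 0.00772). Serpina1a, 1 of several close copies of alpha-1 antitrypsin in the mouse, ran from 51.9 to 96.2 CPM in treated mice and from 28.4 to 49.1 CPM in controls (log2 change 0.94 ± 0.19, adjusted p = 0.011). Gc, the vitamin D binding protein, rose by 1.33 ± 0.29 (adjusted p = 0.0224). Its highest control, replicate 4, had 90.6 CPM against 17.98 to 38.0 CPM in the other controls, and without that mouse the change was 1.81 (adjusted p = 4.95e-05), while 7 other single mice were each needed for the call. Igfals, which carries IGF in plasma, rose by 0.56 ± 0.12 (adjusted p = 0.0163). Shbg, the sex hormone binding globulin, was low throughout, with 0.298 to 1.44 CPM in treated mice and 0.0605 to 0.436 CPM in controls (log2 change 2.21 ± 0.51, adjusted p = 0.0388). A list of 20 other liver-secreted and liver enzyme genes, added after these values were seen, had 0 called by edgeR, 14 below 0 and a median of -0.47. Its fibrinogen gene Fgg was called higher with the 12 libraries alone (adjusted p = 0.0274) and without ob_Cd2 replicate 5 (1.08, adjusted p = 0.00185). The list summed to between 413 and 496 CPM at 0.5 mg/kg and between 374 and 604 CPM in controls.

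Other called genes of known function covered membrane, signalling and metabolic roles. Tm6sf2, which supports lipid export in liver, lay at 5.01, 7.23 and 9.28 CPM at 0.5 mg/kg and at 3.02, 3.49 and 4.12 CPM in controls (log2 change 1.07 ± 0.15, adjusted p = 4.41e-05). Tmprss4, a membrane serine protease, lay at 1.62, 2.09 and 3.32 CPM in treated mice and at 0.426, 0.747 and 0.998 CPM in controls (log2 change 1.60 ± 0.25, adjusted p = 0.000301), and it overlaps BC049352 on the other strand. Snhg11, a host transcript of small nucleolar RNA, lay at 90.6, 108 and 115 CPM at 0.5 mg/kg and at 51.4, 65.1 and 77.3 CPM in controls (log2 change 0.73 ± 0.12, adjusted p = 0.00036). The unnamed model Gm4952 lay at 6.45, 8.93 and 9.28 CPM in treated mice and at 1.82, 2.39 and 3.01 CPM in controls (log2 change 1.82 ± 0.16, adjusted p = 1.18e-09). For none of these 4 genes did a treated mouse reach the control range.
Rpia, an enzyme of the pentose phosphate pathway, rose by 0.40 ± 0.08 and Ogdhl, a relative of oxoglutarate dehydrogenase, by 0.86 ± 0.17. Mreg, a regulator of organelle transport, rose by 0.95 ± 0.18, Serpinb6a, an intracellular protease inhibitor, by 0.54 ± 0.11, and Card14, a scaffold of NF-kB signalling, by 0.71 ± 0.16. Serpinb6a and Card14 overlap other expressed genes on the opposite strand. Nyx, best known from the retina, Gsg1l, an auxiliary protein of glutamate receptors, and Tchhl1, a relative of trichohyalin, rose by 2.54 ± 0.43, 1.90 ± 0.42 and 0.76 ± 0.18, from low levels in controls (at most 0.509, 0.436 and 4.54 CPM). The call of Nyx was lost with the 12 libraries alone (adjusted p = 0.0524).

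A further 5 called genes had 3 or fewer counts in all 6 controls together, so their fitted changes are not given. Hrk, a pro-apoptotic BH3-only gene, had 28 counts in treated mice and 0 in controls, at least 9.33-fold higher when 3 counts over the 6 controls are taken as the floor. On the same floor Lrit2 (20 counts and 0) was at least 6.66-fold higher and the somatostatin receptor Sstr5 (16 counts and 0) at least 5.33-fold higher. Tnfrsf9 (4-1BB, a co-stimulatory receptor of T cells) had 45 counts in treated mice and 2 in controls, a ratio of 22.5 with an exact 95% counting interval of 5.87 to 191. Its annotated span overlaps Camta1, an expressed gene on the opposite strand, and counting ignored strand. The last of the 5 is an unnamed model beside Nyx. Their adjusted p ran from 0.00857 to 0.0351, and Hrk lost its call without any of 9 single mice.

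Beside Slc39a10, 4 genes were lower. Ccl28, an epithelial chemokine that attracts cells making immunoglobulin A, lay at 7.18, 12.5 and 16.0 CPM at 0.5 mg/kg and at 18.9, 30.9 and 70.3 CPM in controls (log2 change -1.58 ± 0.28, adjusted p = 0.00124). The groups did not overlap, though the controls were widely spread. Of 24 listed inflammation genes edgeR called Ccl28 alone with the 36 libraries, and Fgg as well in the fits named above. Cox7a2, a subunit of cytochrome c oxidase, fell by 0.32 ± 0.07 on the log2 scale (adjusted p = 0.0201). Wdr90, a protein of centrioles and cilia, fell by 0.40 ± 0.09 (adjusted p = 0.0285), and the Rac activator Dock5 fell by 0.28 ± 0.06 (adjusted p = 0.0303). The annotated span of Wdr90 overlaps Rhot2, an expressed gene on the same strand. Calls of Cox7a2, Wdr90 and Dock5 were each lost without any of 6 or 7 single mice.

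Most pathways listed for this tissue gave no called gene in the fit to 36 libraries. Heat shock chaperones (22 tested), the unfolded protein and integrated stress response (23), p53 targets (20), interferon and MHC class I genes (24), clock genes (19), proteasome subunits (28), fatty acid oxidation (24) and cell cycle genes (22) all had 0 called by edgeR, with list medians from -0.05 to 0.13. Among these lists, limma-voom called the interferon regulator Irf1 higher, named after its values were seen. The most one-sided of them were proteasome subunits (4 above 0 and 24 below) and interferon and MHC class I genes (18 above and 6 below). At an unadjusted p below 0.05 edgeR gave 1057 of the 18180 genes, 638 higher and 419 lower. A share of about 0.05 of genes without any change would also pass that line, so nothing is read from this count. Of 34 nuclear genes of the respiratory chain 30 lay below 0, with a median of -0.08 and 1 called (Cox7a2), and the next smallest p was that of Ndufa4 (-0.19 ± 0.06, adjusted p = 0.28). Lower calls in this list numbered 2 with the 12 libraries alone and 3 by limma-voom, where Ndufa4 was among them (adjusted p = 0.0134). All 13 mitochondrial genome transcripts lay above 0, with a median of 0.15 and 0 called by edgeR, or 1 by limma-voom. Of 13 androgen-responsive kidney genes 10 lay below 0 (median -0.26), and of 13 genes of megalin and cubilin uptake 9 lay above 0 (median 0.04), again with 0 called by edgeR. With the 12 libraries alone edgeR called 3 of the androgen-responsive genes lower (Odc1, Slc22a30 and Slco1a1, named after their values were seen), and limma-voom called 1. The mitochondrial chromosome took 7.21% to 9.40% of counts at 0.5 mg/kg and 7.18% to 8.48% in controls. Its part in the medians of mitochondrial genes was not tested.

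No marker of tubular injury was called by edgeR with the 36 libraries, and other fits called up to 3. Havcr1 (KIM-1), which appears on damaged proximal tubule cells, lay at 8.20, 17.1 and 48.5 CPM at 0.5 mg/kg and at 2.15, 5.44 and 181 CPM in controls. The change was -0.75 ± 0.69 (adjusted p = 1), and 1.86 without control replicate 4 (adjusted p = 0.128), so the direction turned without 1 control. Lcn2 (NGAL) lay at 3.21, 6.30 and 7.71 CPM in treated mice and at 3.42, 4.97 and 7.65 CPM in controls (0.27 ± 0.77, adjusted p = 1). Of 24 injury markers tested 0 were called by edgeR, with a median of 0.05. Without ob_Cd2 replicate 5, 3 of them were higher: the protease inhibitor Timp1 (1.27, adjusted p = 0.0484), vimentin Vim (0.36, adjusted p = 0.0316) and osteopontin Spp1 (0.70, adjusted p = 0.00117). Spp1 was also called with the 12 libraries alone (adjusted p = 0.0195) and by limma-voom (adjusted p = 0.000115), Vim by limma-voom (adjusted p = 0.0119) and Timp1 by DESeq2 (adjusted p = 0.0438). Of 28 genes of extracellular matrix and fibrosis 26 lay above 0, with a median of 0.24, and edgeR called 0 with the 36 libraries. Without ob_Cd2 replicate 5 it called 3 higher (Timp1, Vim and the collagen gene Col1a1), limma-voom called 3 and DESeq2 called 1.

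Without ob_Cd2 replicate 5 a further 98 genes were called. The 10 of smallest p included 8 higher genes. Slc35f1, a carrier of unknown substrate, ran from 7.15 to 11.3 CPM at 0.5 mg/kg and from 3.56 to 5.23 CPM in controls (log2 change 1.17 ± 0.12, adjusted p = 2.08e-08). Arsb, a lysosomal sulfatase, ran from 159 to 182 CPM in treated mice and from 103 to 124 CPM in controls (0.58 ± 0.08, adjusted p = 1.19e-05). Fam151a rose by 0.74 ± 0.10, Dlg2, a synaptic scaffold gene, by 1.09 ± 0.16, Kynu, the kynureninase of tryptophan breakdown, by 1.25 ± 0.20, and Mas1, the receptor for angiotensin-(1-7), by 1.21 ± 0.22. Spp1, given above, was also among the 10. The lower ones were Nhp2, a protein of box H/ACA ribonucleoproteins, and Igha, the constant region of immunoglobulin A. Igha ran from 3.87 to 8.50 CPM at 0.5 mg/kg and from 11.99 to 22.2 CPM in controls (-1.52 ± 0.27, adjusted p = 0.000803). With all libraries Igha stood at an adjusted p of 0.0566. Summed lymphocyte markers ran from 22.1 to 49.1 CPM in treated mice and from 22.0 to 47.4 CPM in controls.

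Highest and lowest values were spread unevenly over the treated mice. Of the 54 higher genes, 24 were highest in treated replicate 6, 14 in replicate 5 and 11 in replicate 2, and 28 were lowest in replicate 3. Treated replicate 3 was highest in 0 of the 54. Over all tested genes without ties, replicate 6 was highest in 29.4% and lowest in 26.2%, and replicate 3 was highest in 13.0% and lowest in 15.2%. Without treated replicate 5, 17 of the 59 calls were lost, and without control replicate 1, 16 were lost, the most for any treated mouse and any control. In all, 39 of the 59 were called whichever single mouse of the 12 was left out. The other 20 included, beside those given above with their losses, Igfals, Gsg1l, Ces2g, Card14, Tchhl1 and Shbg, whose calls were lost without any of 4 to 8 single mice, and Serpinb6a and Rpia, lost without any of 2 or 3.

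Of the 59 genes, 48 (81.4%) were also called in the same direction in ob mice at 0.5 mg/kg, a comparison with other mice in which 4.28% of all tested genes were called. Among the 54 higher genes 46 were called higher in ob, where 3.55% of tested genes were higher. Of the 5 lower genes 2 (Slc39a10 and Wdr90) were called lower in ob, where 0.737% were. None was called in the opposite direction by edgeR, and the fitted sign differed only for Serpina1a (-0.07 ± 0.19 in ob) and Rdh16f2 (-0.10 ± 0.20 in ob). The 48 shared genes were 6.16% of the 779 genes called in ob. Over the 49 higher genes with more than 3 control counts, 36 had a larger fitted change in ob and the median was 1.93 in ob and 1.28 in b6j.

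A test of whether ob and b6j mice responded unequally to 0.5 mg/kg called 11 of the 59 genes, against 0.385% of all genes tested. In 10 of them the change was larger in ob (0.369% of all genes) and in 1 it was smaller (0.0165%). This test reuses the b6j mice by which the 59 genes were picked, so nothing is read from these shares. Without ob_Cd2 replicate 5 the test called 18 of the 59, and without b6j control replicate 5 it called 7. Hmox1 differed most clearly, with 507 to 727 CPM in ob mice at 0.5 mg/kg and 23.0 to 33.0 CPM in ob controls (4.62 ± 0.19 in ob and 1.35 ± 0.16 in b6j on the log2 scale, difference 3.27 ± 0.23, adjusted p = 1.43e-11). Gstm3 (difference 3.94 ± 0.75), Maoa (1.82 ± 0.22), Ugt2b34 (1.43 ± 0.20), Mt1 (1.10 ± 0.19), Ces2e (1.04 ± 0.23) and Psap (0.84 ± 0.11) followed. Npl went the other way, by -0.71 ± 0.16 (adjusted p = 0.0346), with 61.7 to 76.8 CPM in treated ob mice and 52.3 to 68.0 CPM in ob controls. Its b6j controls were far lower, at 17.2 CPM in replicate 5 and 22.1 to 23.9 CPM in the others. That gap between the controls of the genotypes was not tested here. The controls of the genotypes were also far apart for Rdh16f2 and Serpina1a, which were among the 11 genes not called in ob. These gaps were not tested either. Rdh16f2 had 254 to 392 CPM in ob controls, against 58.5 to 130.1 CPM in b6j controls, and Serpina1a had 91.0 to 137 CPM, against 28.4 to 49.1 CPM.

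**Figure D4:**
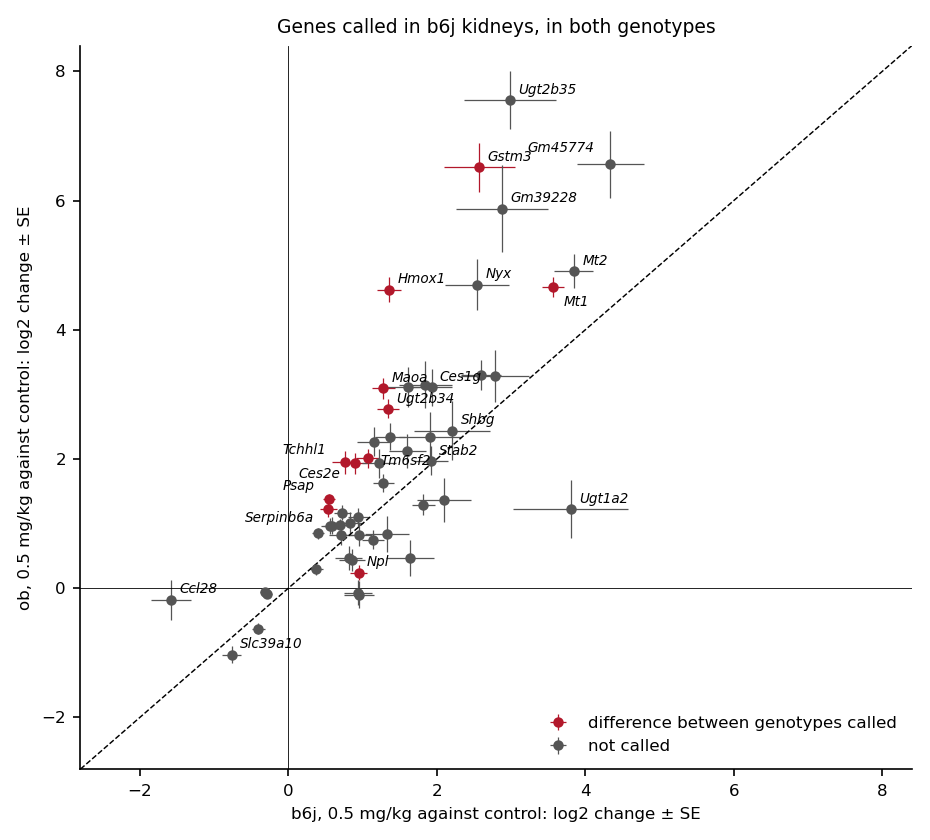
Each point is 1 of 54 genes called in b6j mice at 0.5 mg/kg, with its log2 change ± SE in b6j on the horizontal axis and in ob at the same dose on the vertical axis. The 5 genes with 3 or fewer control counts are left out, the dashed line marks equal changes, and red points are the 11 genes whose difference between genotypes was called, of which Npl alone lies below the line.

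In b6j mice at 2 mg/kg all 59 genes were called in the same direction against the same controls, where 23.7% of all tested genes were called. The controls are shared, so nothing is read from this overlap. Between 2 and 0.5 mg/kg, a step that reuses the 0.5 mg/kg mice and in which 17.3% of tested genes were called, 40 of the 59 were called, each in the same direction as at the lower dose. These were 37 of the higher genes, where 8.78% of tested genes were higher, and 3 of the lower ones, where 8.51% were lower. Hmox1 had a median of 41.6 CPM at 0 and 117 CPM at 0.5 mg/kg and ran from 904 to 1829 CPM at 2 mg/kg (step 3.49 ± 0.18). Maoa, Abcc4 and Gsta2 gained a further 2.76 ± 0.16, 1.93 ± 0.15 and 1.46 ± 0.14. The step of Mt1 was 1.17 ± 0.13, smaller than its first change of 3.57.
For 19 genes no further step was called. Stab2 changed by 1.92 ± 0.23 at 0.5 mg/kg and by 0.09 ± 0.22 from there to 2 mg/kg (adjusted p = 0.832). Igfals (step -0.02 ± 0.12), Snhg11 (-0.04 ± 0.12), Slc39a10 (-0.08 ± 0.13), Lgmn (-0.08 ± 0.08) and Tmprss4 (-0.31 ± 0.24) were alike in having steps near or below 0, all with an adjusted p of 0.419 or more. A step that misses the threshold does not show equal levels.

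**Figure D5:**
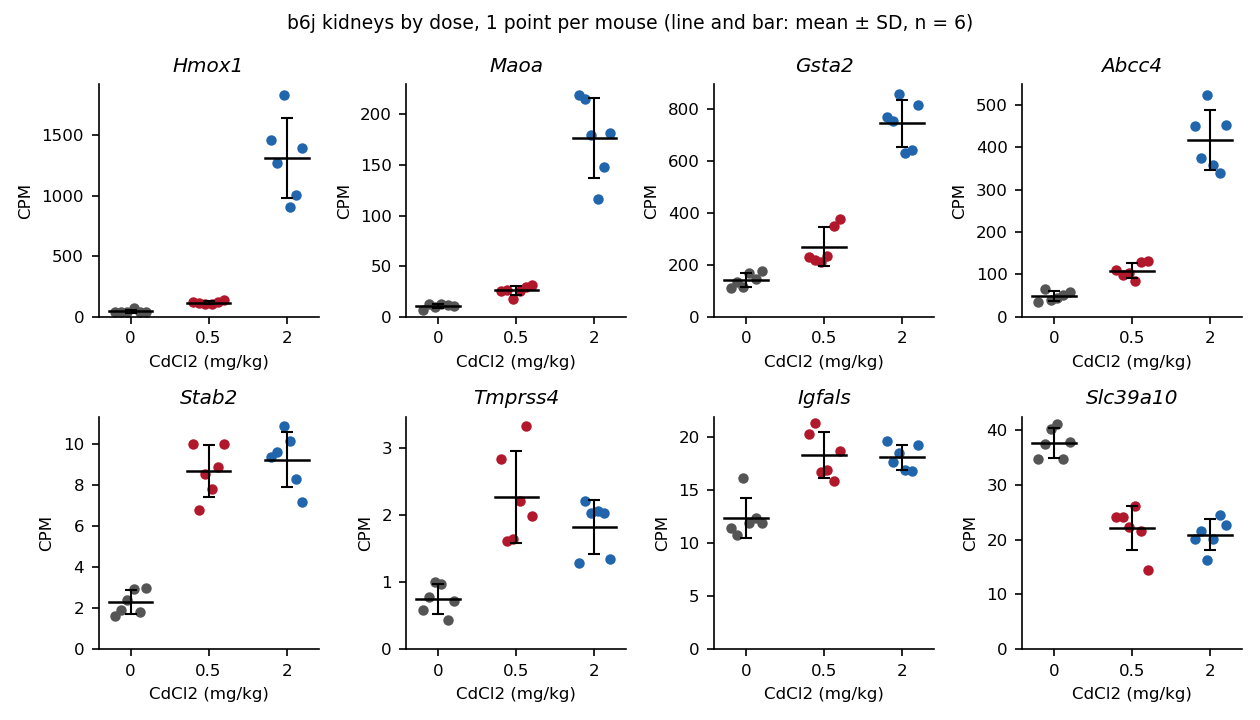
CPM of 8 called genes in single b6j mice at 0, 0.5 and 2 mg/kg of CdCl2, with the mean as a line and the SD as a bar (n = 6 each). In the upper row Hmox1, Maoa, Gsta2 and Abcc4 climb further at 2 mg/kg. For Stab2, Tmprss4, Igfals and Slc39a10 in the lower row no step from 0.5 to 2 mg/kg was called.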

How the data were processed

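Kidney mRNA of 36 mice was sequenced, 6 in each of 6 groups, and 12 libraries make up the comparison described. Per the labels' protocols, total RNA was isolated with TRIzol from frozen kidney and used where its integrity number was above 6.5. Per the submitters' processing notes, bcl2fastq, Trimmomatic, FastQC and STAR were used with GRCm38. Per the file headers, the authors counted reads per gene with featureCounts 1.4.6-p2 against Ensembl 96 with default settings, so strand was ignored. The deposited values are whole counts for 55536 genes. A joined table with 36 columns was not used.

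Symbols and positions came from GENCODE M21 (all 55536 identifiers matched) and promoter sequences from RefSeq (GRCm38.p6). In R 4.3.3, edgeR 4.0.16 fitted 1 quasi-likelihood model to the 36 libraries (18180 genes after its default filter, TMM factors 0.892 to 1.122). Changes are log2 ratios ± SE (the change over the root of the F statistic), p-values are Benjamini-Hochberg adjusted over all 18180 genes, and CPM uses the scaled library sizes. Genes with an adjusted p below 0.05 are called. The scripts were tested on simulated data. Alternatives were DESeq2 1.42.0, limma 3.58.1 (voom with sample weights), other scalings and filters, fewer libraries, a replicate block, and each library left out.

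The comparison, the members and the gene lists were chosen with earlier results of these data known. Mt1, Mt2, Hmox1, Havcr1 and Lcn2 were always named. Called genes could be named, with the lowest, median and highest CPM for the 20 of smallest p. Up to 4 genes of smallest p came from each list described, and 10 from those gained without ob_Cd2 replicate 5. Some genes that this rule would name are not reported here. Unnamed models outside the 20 were counted only, except Gm39228. Intervals and floors cover counting error only.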

Additional observations from a re-analysis of the deposited data

Results flagged for a closer look

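In 17 of 156 groups of 6 mice (6 treated, 11 control) over the named genes, 1 mouse lay far from the other 5. The rule flags about 5% of groups of independent normal values. CPM of genes in the same mice need be neither, so the flags are not read against that share. For Tnfrsf9 and Gm14506 1 control alone had counts, which the rule always flags. Among treated mice, Nr1i2 and Ugt2b35 were high in replicate 2 (19.5 CPM, others 7.57 to 8.44, and 1.79 CPM, others 0.821 to 1.08). Ugt1a2 and Havcr1 were high in replicate 5 (9.28 CPM, others 1.11 to 2.33, and 48.5 CPM, others 8.20 to 19.6). In treated replicate 6 Gstm3 was high at 2.16 CPM (others 0.865 to 1.24) and Aoc1 low at 6.45 CPM (others 11.3 to 12.5).

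Control replicate 4 was high for Hmox1 (71.6 CPM, others 37.7 to 43.5), Gc (90.6 CPM, others 17.98 to 38.0) and Havcr1 (181 CPM, others 2.15 to 13.0). Control replicate 1 was high for Cyp2c38 (0.436 CPM, others 0.0671 to 0.182), Shbg (0.436 CPM, others 0.0605 to 0.134) and an unnamed model (Gm14506, 0.0727 CPM, others 0) and low for Rpia (19.4 CPM, others 21.8 to 22.9). Control replicate 5 was low for Npl (17.2 CPM, others 22.1 to 23.9) and alone had counts of Tnfrsf9 (0.0568 CPM, others 0). Control replicate 3 was high for Igfals (16.1 CPM, others 10.8 to 12.4) and Nhp2 (111 CPM, others 94.8 to 99.4).

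The response to 0.5 mg/kg differed between ob and b6j by the interaction test of edgeR for 14 named genes, on the log2 scale as ob minus b6j. The larger ones were Havcr1 (4.92, adjusted p = 0.0386), Gstm3 (3.94, 0.00584), Mas1 (3.53, 0.000213), Hmox1 (3.27, 1.43e-11), Maoa (1.82, 8.28e-06) and Ugt2b34 (1.43, 5.86e-05). Havcr1 includes the 181 CPM of b6j control replicate 4. Tchhl1 differed by 1.19 (0.0149), Mt1 by 1.1 (0.00123), Ces2e by 1.04 (0.0249), Tm6sf2 by 0.94 (0.027), Nhp2 by 0.89 (0.0202), Psap by 0.84 (3.36e-05) and Serpinb6a by 0.68 (0.0419). Npl differed by -0.71 (0.0346).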

How the results depend on the processing

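The count of 59 called genes was 120 with the 2 groups alone (81 higher, 39 lower), 119 with the 18 b6j libraries (92 and 27), 106 by DESeq2 (89 and 17) and 232 by limma-voom with sample weights (117 and 115). It ranged from 42 to 157 when each of the 36 libraries was left out, the highest without ob_Cd2 replicate 5. Other scalings and filters gave 55 to 60. Of the 59, 31 were called without each of the 12 mice and in all 9 other settings (29 higher, 2 lower). The number with a called difference between genotypes was 18, not 11, with the compared groups alone, by DESeq2 and by limma-voom, and ranged from 7 (without b6j control replicate 5) to 18 (without ob_Cd2 replicate 5) over left-out libraries. The number also called in ob ranged from 47 to 49, in b6j at 2 mg/kg from 58 to 59, and between doses from 36 to 45. Havcr1, not called, changed sign to 1.44 by limma-voom, 0.052 with a replicate block and 1.86 without control replicate 4, and ranged from -1.20 to 1.86 over left-out libraries. The cause was not tested. With replicate number as a block 58 genes were called. Same-numbered mice did not deviate together (correlations -0.062 to 0.052), and 0 of the 6 numbers gave the best match. Depth limits genes below about 0.1 CPM.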
